A study of Homo sapiens with 94 samples.

Results

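The genes described here are 30 human genes of sterol synthesis and of its control and transport, all of them found among the 20239 gene IDs of the expression table. They were picked by gene symbol, and the tumors by a measured value, the number of genes at 1 or more FPKM (fragments per kilobase of transcript, scaled to the mapped fragments of the library). A library had to hold at least 10000 such genes, which kept 91 of 94 libraries, with 11344 to 11665 such genes in those kept and 702, 7196 and 8531 in the 3 left out. The list was proposed with results of these data in view, so its p-values describe these members and are no independent evidence about them. The members are grouped here as 6 genes of the mevalonate steps, 2 of the prenyl branch, 3 of the squalene steps, 8 of the sterol ring steps, 4 of SREBP control, 4 of sterol transport and 3 induced by the LXR receptors.

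Each library came from a tumor of NCI-H226, an established line of human pleural mesothelioma that lacks NF2, grown under the skin of female CB17 SCID mice aged 6 to 8 weeks, which keep innate immune cells but lack mature B and T lymphocytes. Mice with tumors of about 300 mm3 were given a single oral dose of K-975, an inhibitor that binds in the lipid pocket of the TEAD transcription factors, at 30, 100 or 200 mg/kg, or vehicle (ethanol, Solutol and glucose), or were left untreated. Tumors were taken in 3 studies, at 1 h, at 3-6 h and at 24 h. Vehicle and 200 mg/kg were given in 20 mL/kg and the lower doses in 10 mL/kg. At 1 h and at 24 h each group was 1 cage group, so that cage and treatment cannot be told apart, whereas at 3-6 h vehicle and every dose had 2 cage groups. In the 91 libraries, the 24 h study held 5 untreated, 4 vehicle, 4, 4 and 5 tumors by rising dose, the 1 h study 5, 5, 5, 5 and 4, and the 3-6 h study 5, 10, 10, 10 and 10. Of 8 markers of the line, KRT18, CALB2, KRT19, KRT8 and MSLN were at 173 to 906 FPKM and PDPN and WT1 at 18.8 to 73.1 FPKM, while UPK3B was at 0 to 4.05 FPKM. Of markers of host cells, FABP4 and LEP were listed at 0 in all 91 libraries, PECAM1 in 79 and LYZ in 83, while CD68 (40.5 to 265 FPKM) and KDR (23.1 to 135 FPKM) were present in every library. So were PDGFRB (21.9 to 46.7 FPKM) and ACTA2 (11.1 to 31.4 FPKM), and, at 0.230 to 6.22 FPKM, ITGAM, VWF and CDH5. The other host markers read, such as DCN (0 to 11.8 FPKM) and RGS5 (0 to 17.5 FPKM), were listed at 0 in some libraries. The summed level of the 8 markers of the line was 2192 to 2243 FPKM in the vehicle tumors at 24 h. It lay above that in every treated tumor of that study, between 2330 and 2844 FPKM, while untreated tumors spread from 1942 to 2637 FPKM. The summed leukocyte markers of vehicle tumors (146 to 223 FPKM) and of tumors at 200 mg/kg (129 to 208 FPKM) overlapped, as did endothelial and fibroblast markers. These sums rest mostly on CD68, KDR, PDGFRB and ACTA2, with medians of 139, 63.9, 32.0 and 19.1 FPKM over the 91 libraries. The other markers in them had medians of at most 2.59 FPKM (ITGAM). The overlap of the sums therefore does not show whether the content of host cells was alike. The part of the line markers in the results below was not tested. Per-tumor values are given in replicate order, without replicate 1 of 30 mg/kg and replicate 5 of 100 mg/kg at 24 h, which were among the libraries left out. P-values measure the spread between tumors of such groups.

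Cells build cholesterol from acetyl-CoA by way of mevalonate, farnesyl diphosphate, squalene and lanosterol. When the membrane of the endoplasmic reticulum runs low in sterol, SCAP escorts the SREBP2 precursor to the Golgi, where proteases release a fragment that enters the nucleus and switches on nearly every gene of the route, together with INSIG1, which holds SCAP back. When oxysterols build up, the LXR receptors switch on exporters such as ABCA1 and ABCG1. SREBP2 binds the sterol regulatory element and works with the factor NF-Y, which binds CCAAT boxes, and TEAD factors bind CATTCC.

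The stretches of 250 bases before the RefSeq gene start (build GRCh38.p14) are shown for all 7 members that fell at 200 mg/kg and 24 h and have a single start in the table. On the plus strand, TMEM97 is read from chr17:28318950-28319199, FDPS from chr1:155308616-155308865, MSMO1 from chr4:165327419-165327668 and INSIG1 from chr7:155297628-155297877. On the minus strand, MVD is read from chr16:88663092-88663341, CYP51A1 from chr7:92134478-92134727 and LSS from chr21:46228775-46229024, each 5′ to 3′. Capitals mark CCAAT on either strand (ATTGG when read on the other), and in MSMO1 also TCACTCCA, a match to TCACNCCA. The end of a TCACNCCA match can overlap a CCAAT box, which it does not here.
TMEM97: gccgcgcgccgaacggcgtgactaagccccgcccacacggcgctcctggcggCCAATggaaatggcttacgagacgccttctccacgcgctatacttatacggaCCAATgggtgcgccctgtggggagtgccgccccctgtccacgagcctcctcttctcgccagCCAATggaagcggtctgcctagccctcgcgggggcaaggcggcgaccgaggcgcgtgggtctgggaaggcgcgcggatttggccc
FDPS: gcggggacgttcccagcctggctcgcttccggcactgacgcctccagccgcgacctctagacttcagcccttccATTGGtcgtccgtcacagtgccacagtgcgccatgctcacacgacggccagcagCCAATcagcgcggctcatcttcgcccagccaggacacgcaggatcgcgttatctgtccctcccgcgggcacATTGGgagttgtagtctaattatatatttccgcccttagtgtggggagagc
MVD: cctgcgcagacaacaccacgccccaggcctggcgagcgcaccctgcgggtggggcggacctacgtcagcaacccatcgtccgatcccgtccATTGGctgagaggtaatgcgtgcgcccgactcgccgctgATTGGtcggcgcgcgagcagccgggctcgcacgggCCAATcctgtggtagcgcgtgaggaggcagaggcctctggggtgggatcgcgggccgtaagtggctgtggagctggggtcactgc
CYP51A1: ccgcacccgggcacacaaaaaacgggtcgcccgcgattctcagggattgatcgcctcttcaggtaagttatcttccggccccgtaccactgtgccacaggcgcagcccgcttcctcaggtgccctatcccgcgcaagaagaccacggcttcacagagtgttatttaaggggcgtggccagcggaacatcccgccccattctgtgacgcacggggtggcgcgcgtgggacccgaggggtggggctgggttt
MSMO1: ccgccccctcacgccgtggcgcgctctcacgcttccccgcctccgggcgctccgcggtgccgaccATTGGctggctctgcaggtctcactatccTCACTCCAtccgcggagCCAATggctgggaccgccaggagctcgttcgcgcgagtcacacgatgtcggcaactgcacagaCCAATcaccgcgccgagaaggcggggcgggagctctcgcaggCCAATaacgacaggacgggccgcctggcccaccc
INSIG1: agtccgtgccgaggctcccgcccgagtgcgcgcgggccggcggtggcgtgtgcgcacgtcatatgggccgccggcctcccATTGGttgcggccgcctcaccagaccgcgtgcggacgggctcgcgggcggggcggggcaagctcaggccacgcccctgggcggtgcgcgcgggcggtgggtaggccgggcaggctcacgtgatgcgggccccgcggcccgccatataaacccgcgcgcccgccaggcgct
LSS: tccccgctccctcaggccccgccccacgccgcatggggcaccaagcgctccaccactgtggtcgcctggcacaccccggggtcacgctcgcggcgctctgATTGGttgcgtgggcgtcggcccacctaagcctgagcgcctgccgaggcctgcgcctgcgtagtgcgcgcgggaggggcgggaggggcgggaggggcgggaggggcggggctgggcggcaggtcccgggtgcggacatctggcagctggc
TMEM97, FDPS and MVD each held 3 CCAAT boxes and MSMO1 held 4, whereas INSIG1 and LSS held 1 each and CYP51A1 held 0. The RefSeq starts differ from the gene bounds given with the expression values. By those bounds the CYP51A1 stretch lies wholly inside its gene, and the other stretches reach into theirs. Other starts of these 7 genes were not searched. The table had 34 such stretches for 26 members and none for ABCG1, ACAT2, FDFT1 and SQLE. On both strands, CCAAT was found in 22 of the 34 stretches (20 genes), against 32.0% of the 35116 promoters of all genes. The sterol element TCACNCCA was found in 3 of 34 (MSMO1, MVK and SREBF2), against 3.20% of all promoters. The TEAD motif CATTCC was found in 4 of 34 (EBP, HSD17B7, PMVK and STARD4), against 11.9% of all promoters. None of the 7 members printed above held CATTCC in this stretch. A match is a string of letters and was not tested for binding.

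The comparison of 200 mg/kg with vehicle at 24 h asked which members had changed by the end of the first day. Of 29 members tested, 12 fell and 1 rose, and 16 did not pass. All 3 squalene genes fell, as did 4 of 6 mevalonate genes, 1 of 2 prenyl genes and 2 of 8 sterol ring genes, together with INSIG1 and TMEM97. The sterol reductase TM7SF2 was the 1 member that rose. Tests were made with limma on log2(FPKM + 1) and adjusted over 13036 genes by Benjamini-Hochberg, and a gene is called where the adjusted p is under 0.05. Of all genes tested, 7.41% were called, 3.61% as lower and 3.80% as higher. The median log2 fold change was -0.35 over the 29 members and 0.04 over all genes, and 22 of 29 members lay below 0, against 44.6% of all genes. In bulk tumors, fewer cells of a type and less RNA per cell cannot be told apart. FPKM hold no read counts, so the depth behind a value is known only through the number of genes detected.

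**Figure D1:**
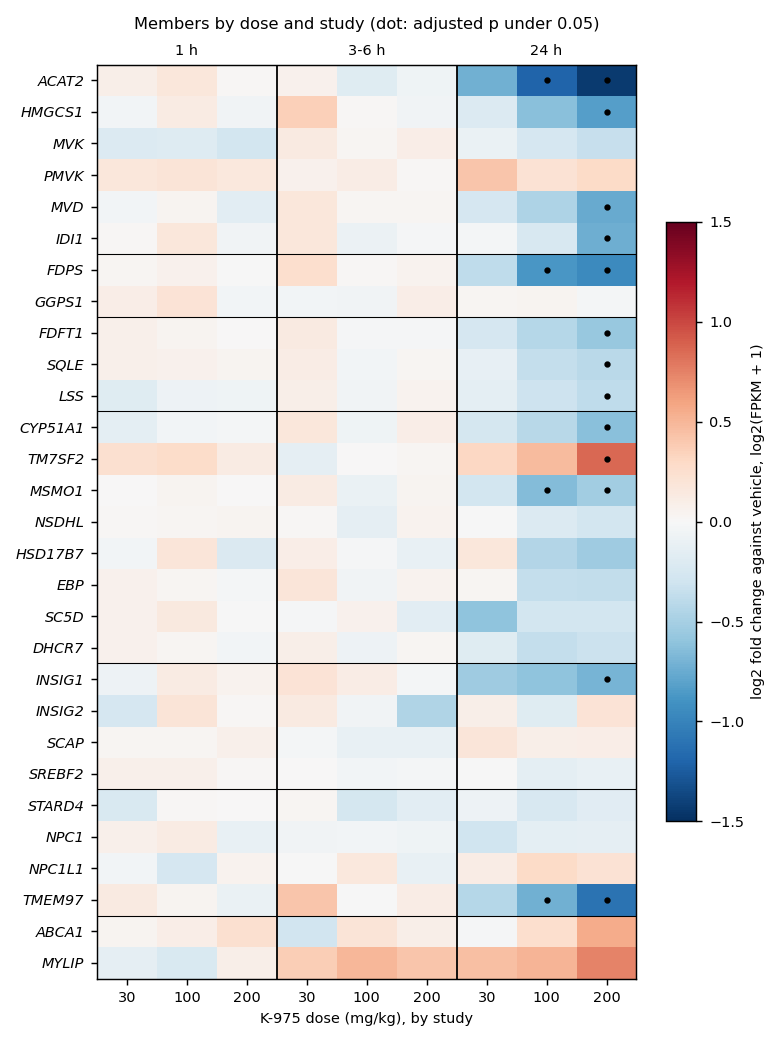
Log2 fold change of 29 members (rows, in pathway order, with lines between groups) against vehicle, on the log2(FPKM + 1) scale, for 3 doses in each of 3 studies (columns). Blue is lower and red is higher than vehicle, and a dot marks an adjusted p under 0.05. Dots stand only in the 24 h columns, 4 of them at 100 mg/kg and 13 at 200 mg/kg.

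ACAT2 (ENSG00000120437.8, chr6:159760328-159779055, plus strand) encodes the cytosolic thiolase that joins 2 acetyl-CoA molecules at the entry of the route. ACAT2 was at 72.7, 84.6, 105 and 72.4 FPKM in the 4 vehicle tumors, and at 23.3, 41.5, 25.7, 34.8 and 27.8 FPKM in the 5 tumors given 200 mg/kg. Every treated tumor lay below every vehicle tumor, with the highest treated tumor at 41.5 and the lowest vehicle tumor at 72.4 FPKM. At 100 mg/kg ACAT2 was at 34.1, 40.2, 30.2 and 37.3 FPKM, and at 30 mg/kg at 42.9, 51.8, 52.8 and 52.4 FPKM, so that these groups did not overlap with vehicle either. The group means fell from 83.6 ± 15.3 (SD, n = 4) to 30.6 ± 7.44 (SD, n = 5) FPKM, and the log2 fold change was -1.44 (SE 0.179, adjusted p = 5.40e-08) at 200 mg/kg, -1.21 (adjusted p = 6.92e-05) at 100 mg/kg and -0.72 (adjusted p = 0.111) at 30 mg/kg. The doses share their vehicle tumors. Untreated tumors at 24 h had 65.8, 77.9, 71.1, 42.4 and 67.2 FPKM, and vehicle was above them by 0.37 log2 units with an unadjusted p of 0.0399 and an adjusted p of 1 in limma. Against untreated tumors the fold change at 200 mg/kg was -1.06 (adjusted p = 1.18e-05). The exons of ACAT2 overlap on the opposite strand with SOD2 over 1141 bases and with TCP1 over 397 bases, and the counting is not stated to use strand. SOD2 was at 1190 ± 289 FPKM (SD, n = 4) with vehicle and 878 ± 303 (SD, n = 5) at 200 mg/kg (log2 fold change -0.50, limma adjusted p = 0.518), and the part of its reads in the ACAT2 values was not tested.

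HMGCS1 (ENSG00000112972.14, chr5:43289395-43313512, minus strand) makes HMG-CoA, the next intermediate. HMGCS1 was at 66.6, 77.9, 64.0 and 59.9 FPKM with vehicle and at 39.7, 40.6, 38.8, 43.5 and 26.4 FPKM at 200 mg/kg. The groups did not overlap, and replicate 5 at 200 mg/kg was the lowest of all. The levels were 48.6, 40.0, 42.3 and 40.7 FPKM at 100 mg/kg and 47.9, 62.2, 51.5 and 73.3 FPKM at 30 mg/kg, the latter overlapping with vehicle. HMGCS1 fell by 43.7% of the mean at 200 mg/kg, with a log2 fold change of -0.82 (SE 0.191, adjusted p = 0.00386), whereas -0.63 (adjusted p = 0.101) at 100 mg/kg did not pass. Untreated tumors had 67.3, 99.0, 69.9, 57.8 and 57.4 FPKM of HMGCS1, and the fold change against them was -0.87 (adjusted p = 0.000857). An antisense gene overlaps with HMGCS1 and another with IDI1.

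MVD and IDI1 close the mevalonate steps. MVD (ENSG00000167508.11, chr16:88651935-88663161, minus strand) encodes the decarboxylase that yields isopentenyl diphosphate, and IDI1 (ENSG00000067064.10, chr10:1039908-1049170, minus strand) the isomerase that turns it into dimethylallyl diphosphate. MVD was at 161, 151, 147 and 153 FPKM with vehicle and at 90.6, 101, 92.7, 97.2 and 71.8 FPKM at 200 mg/kg. At the lower doses MVD was at 112, 127, 98.9 and 105 FPKM at 100 mg/kg and 118, 133, 127 and 135 FPKM at 30 mg/kg. No treated tumor at any dose reached the lowest vehicle tumor, and the log2 fold change at 200 mg/kg was -0.76 (SE 0.125, adjusted p = 2.79e-05). IDI1 was at 49.2, 60.2, 59.2 and 71.6 FPKM with vehicle and at 41.4, 45.7, 36.2, 34.9 and 23.2 FPKM at 200 mg/kg. The groups did not overlap, though the vehicle tumors spread more widely than for MVD. IDI1 was at 42.9, 54.1, 52.9 and 52.2 FPKM at 100 mg/kg and 47.1, 51.6, 64.0 and 74.5 FPKM at 30 mg/kg, both overlapping with vehicle. IDI1 had a log2 fold change of -0.73 (SE 0.138, adjusted p = 0.000300) at 200 mg/kg. Untreated tumors had 156, 169, 147, 128 and 127 FPKM of MVD and 66.4, 69.1, 60.8, 53.7 and 60.7 FPKM of IDI1, and against them the fold changes at 200 mg/kg were -0.68 (adjusted p = 7.60e-05) and -0.79 (adjusted p = 2.92e-05).

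The 2 kinases of mevalonate, MVK and PMVK, were not called. MVK, the kinase that first phosphorylates mevalonate, was at 14.4 to 17.7 FPKM with vehicle and 8.93 to 14.7 FPKM at 200 mg/kg (log2 fold change -0.35, adjusted p = 0.258). PMVK, which adds the other phosphate, was at 34.9 to 41.3 FPKM with vehicle and 41.7 to 54.2 FPKM at 200 mg/kg. All 5 treated tumors lay above all 4 vehicle tumors for PMVK, with a log2 fold change of 0.28 (adjusted p = 0.213) that did not pass. PMVK and MYLIP were the only members whose tumors at 200 mg/kg all lay above those of vehicle.

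FDPS (ENSG00000160752.14, chr1:155308755-155320665, plus strand) makes farnesyl diphosphate, from which sterols, prenylated proteins, dolichol and ubiquinone are made. FDPS was at 97.8, 114, 130.1 and 105 FPKM with vehicle and at 67.4, 77.6, 52.7, 46.4 and 45.4 FPKM at 200 mg/kg. The mean fell by 48.2%, and no treated tumor overlapped with vehicle. At 100 mg/kg FDPS was at 69.1, 58.1, 52.5 and 63.0 FPKM, about as low as at 200 mg/kg, and at 30 mg/kg at 63.2, 87.3, 89.2 and 107 FPKM. FDPS passed at 200 mg/kg with -0.96 (SE 0.167, adjusted p = 8.23e-05) and at 100 mg/kg with -0.87 (adjusted p = 0.00324). Untreated tumors had 105, 117, 108, 86.0 and 98.2 FPKM of FDPS, and the fold change at 200 mg/kg against them was -0.84 (adjusted p = 0.000212). FDPS shares 693 exon bases with RUSC1-AS1. GGPS1, which extends the chain to geranylgeranyl diphosphate for protein prenylation, was at 12.2 to 20.7 FPKM with vehicle and 9.73 to 21.2 FPKM at 200 mg/kg (log2 fold change -0.03, adjusted p = 0.951). GGPS1 shares 1422 exon bases, 37.3% of its own, with TBCE on its strand, which gave -0.04 (limma adjusted p = 0.912).

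**Figure D2:**
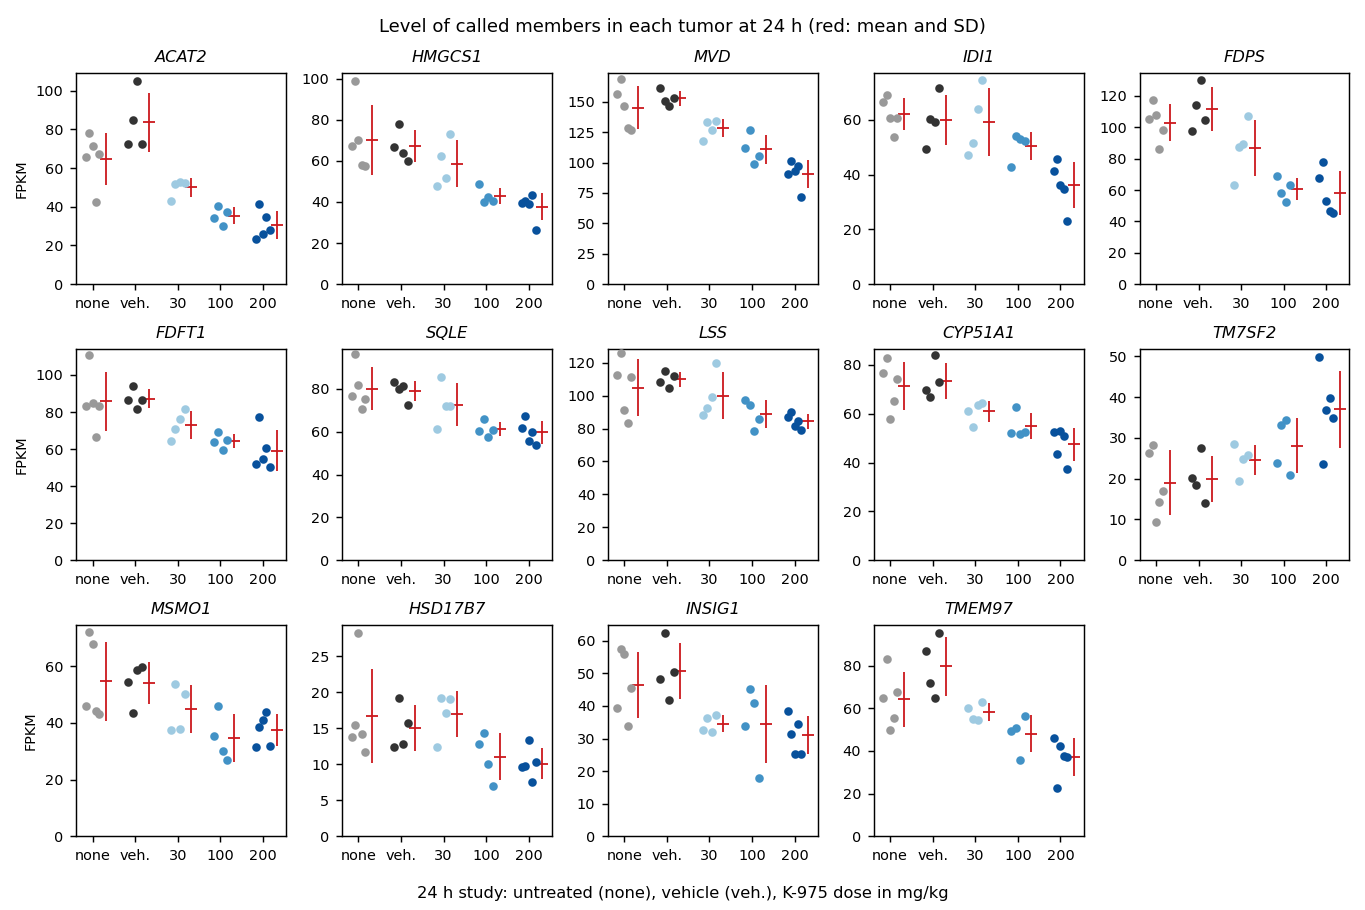
FPKM of the 14 members called in a dose comparison or a dose trend at 24 h, 1 panel per gene, with 1 point per tumor in untreated, vehicle and K-975 tumors at 30, 100 and 200 mg/kg and the mean with SD in red. ACAT2 falls from a mean of 83.6 to 30.6 FPKM, while TM7SF2 rises from 20.0 to 37.0 FPKM.

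The 3 squalene genes fell together and by smaller amounts. FDFT1 (ENSG00000079459.12, chr8:11795573-11839309, plus strand) couples 2 farnesyl units to squalene, SQLE (ENSG00000104549.11, chr8:124998497-125022283, plus strand) adds the epoxide, and LSS (ENSG00000160285.14, chr21:46188141-46228824, minus strand) closes the rings to lanosterol. FDFT1 was at 86.7, 93.9, 81.5 and 86.6 FPKM with vehicle, 63.6, 69.2, 59.5 and 65.1 FPKM at 100 mg/kg and 52.1, 77.6, 54.7, 60.8 and 50.3 FPKM at 200 mg/kg. SQLE was at 83.0, 79.9, 81.3 and 72.4 FPKM with vehicle, 60.4, 66.1, 57.8 and 61.0 FPKM at 100 mg/kg and 61.6, 67.5, 55.9, 59.9 and 53.8 FPKM at 200 mg/kg. LSS was at 108, 115, 104 and 112 FPKM with vehicle, 97.0, 94.0, 78.3 and 85.9 FPKM at 100 mg/kg and 87.0, 90.3, 81.6, 84.3 and 78.9 FPKM at 200 mg/kg. For all 3 genes, every tumor at 100 and at 200 mg/kg lay below every vehicle tumor. The 30 mg/kg tumors overlapped with vehicle, with 64.2, 70.6, 76.4 and 81.6 FPKM for FDFT1, 61.4, 85.6, 71.9 and 72.0 FPKM for SQLE and 88.2, 92.5, 99.3 and 120.0 FPKM for LSS. The log2 fold changes at 200 mg/kg were -0.57 (SE 0.118, adjusted p = 0.000965) for FDFT1, -0.40 (SE 0.0961, adjusted p = 0.00487) for SQLE and -0.38 (SE 0.118, adjusted p = 0.0356) for LSS. None of the 3 passed at 100 mg/kg, where SQLE, at -0.36, missed the threshold by the least. In untreated tumors FDFT1 was at 83.4, 111, 85.0, 66.3 and 83.3 FPKM, SQLE at 76.6, 96.4, 81.9, 70.7 and 75.2 FPKM and LSS at 113, 126, 91.5, 83.5 and 111 FPKM. Tumors at 100 and at 200 mg/kg overlapped with untreated tumors for FDFT1 and LSS, and not for SQLE. The call of LSS was lost in 8 of 9 fits that left out a tumor and with untreated tumors as control (-0.30, adjusted p = 0.0827).

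Of the 8 genes that turn lanosterol into cholesterol, 2 fell and 1 rose. CYP51A1 (ENSG00000001630.15, chr7:92112151-92134803, minus strand), the lanosterol demethylase, was at 69.8, 67.0, 84.0 and 72.8 FPKM with vehicle and 52.3, 43.4, 53.0, 50.8 and 37.5 FPKM at 200 mg/kg. All treated tumors were lower, also at 100 mg/kg with 52.1, 62.7, 51.8 and 52.4 FPKM and at 30 mg/kg with 61.1, 54.7, 63.6 and 64.3 FPKM, and the log2 fold change was -0.63 (SE 0.123, adjusted p = 0.000496) at 200 mg/kg. Untreated tumors had 76.7, 82.9, 58.0, 65.1 and 74.2 FPKM of CYP51A1. CYP51A1 shares 2844 exon bases, 79.4% of its own, with a readthrough gene on its strand, whose part in the CYP51A1 values was not tested. MSMO1 (ENSG00000052802.12, chr4:165327623-165343160, plus strand), the sterol C4 methyl oxidase, was at 54.5, 43.5, 58.7 and 59.6 FPKM with vehicle, 35.2, 46.1, 30.0 and 26.9 FPKM at 100 mg/kg and 31.5, 38.5, 41.2, 44.0 and 31.7 FPKM at 200 mg/kg. These groups overlapped with vehicle, whose replicate 2 was low, and the 30 mg/kg tumors with 37.4, 53.9, 37.9 and 50.1 FPKM did so too. MSMO1 passed at 200 mg/kg with -0.52 (SE 0.161, adjusted p = 0.0332) and at 100 mg/kg with -0.65 (adjusted p = 0.0344), but lost its call in 5 of 9 and in 6 of 8 fits that left out a tumor. Untreated tumors had 45.9, 72.2, 67.7, 44.3 and 43.2 FPKM of MSMO1, with a fold change at 200 mg/kg of -0.51 (adjusted p = 0.0239) against them.

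TM7SF2 (ENSG00000149809.14, chr11:65111854-65116384, plus strand) encodes a sterol C14 reductase that acts right after CYP51A1. TM7SF2 was at 20.1, 18.4, 27.6 and 13.9 FPKM with vehicle and at 49.7, 23.7, 36.8, 39.9 and 34.9 FPKM at 200 mg/kg. Of the treated tumors 4 of 5 lay above every vehicle tumor, and replicate 2 lay within their range. TM7SF2 was at 23.8, 33.3, 34.4 and 20.9 FPKM at 100 mg/kg and 28.4, 19.5, 24.8 and 25.7 FPKM at 30 mg/kg, in each case overlapping with vehicle. The log2 fold change was 0.86 (SE 0.212, adjusted p = 0.00666) at 200 mg/kg, and 0.99 (adjusted p = 0.000641) against untreated tumors, which had 26.2, 28.2, 9.45, 14.3 and 17.0 FPKM. TM7SF2 lost its call where the 24 h groups compared were fitted alone.

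The other 5 sterol ring genes were not called at 200 mg/kg, and each had a negative log2 fold change. HSD17B7, a sterol ketoreductase, was at 12.4, 19.3, 12.9 and 15.7 FPKM with vehicle and 9.57, 9.71, 13.4, 7.51 and 10.3 FPKM at 200 mg/kg, with a log2 fold change of -0.54 (adjusted p = 0.132). At 30 mg/kg HSD17B7 was at 12.5, 19.2, 17.2 and 19.1 FPKM and at 100 mg/kg at 12.8, 14.3, 10.0 and 7.02 FPKM. Untreated tumors had 13.8, 15.5, 28.3, 14.2 and 11.7 FPKM of HSD17B7, with replicate 3 far above the others. HSD17B7 passed in the dose trend over vehicle and the 3 doses, though its tumors at 30 mg/kg lay within the vehicle range. EBP, the sterol isomerase, was at 63.0 to 80.5 FPKM with vehicle and 46.9 to 64.6 FPKM at 200 mg/kg (-0.37, adjusted p = 0.144). DHCR7, the last reductase of the route, was at 72.0 to 83.4 FPKM with vehicle and 52.0 to 76.2 FPKM at 200 mg/kg (-0.33, adjusted p = 0.0885). NSDHL, a sterol dehydrogenase, gave -0.28 (adjusted p = 0.208) and SC5D, the sterol desaturase, -0.28 (adjusted p = 0.568). Against untreated tumors EBP (-0.52, adjusted p = 0.0196), HSD17B7 (-0.63, adjusted p = 0.0479) and NSDHL (-0.38, adjusted p = 0.0489) passed.

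INSIG1 (ENSG00000186480.12, chr7:155297776-155310235, plus strand) was the 1 gene of 4 in SREBP control that was called. INSIG1 was at 48.2, 62.6, 41.9 and 50.4 FPKM with vehicle and at 38.5, 31.5, 25.2, 34.5 and 25.2 FPKM at 200 mg/kg, with no overlap. The levels were 33.7, 45.1, 40.8 and 18.0 FPKM at 100 mg/kg, with 1 low tumor and 1 tumor inside the vehicle range, and 32.6, 36.4, 32.1 and 37.1 FPKM at 30 mg/kg, all below vehicle. Untreated tumors had 39.4, 57.5, 56.0, 33.96 and 45.6 FPKM of INSIG1, and the tumors of every dose overlapped with them. The log2 fold change was -0.70 (SE 0.189, adjusted p = 0.0133) at 200 mg/kg, and without vehicle replicate 2 its adjusted p was 0.0766. SREBF2, which encodes SREBP2 itself, was at 51.5, 54.9, 49.6 and 52.2 FPKM with vehicle and 56.5, 43.8, 49.3, 51.1 and 41.4 FPKM at 200 mg/kg, overlapping (log2 fold change -0.11, SE 0.0920, adjusted p = 0.523). SCAP, the escort, was at 45.9 to 51.3 FPKM with vehicle and 46.2 to 58.0 FPKM at 200 mg/kg (0.11, SE 0.0823, adjusted p = 0.489). INSIG2, the paralog of INSIG1, was at 5.38 to 16.9 FPKM with vehicle and 6.82 to 25.4 FPKM at 200 mg/kg (0.20, SE 0.367, adjusted p = 0.802).

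Among the 4 transport genes TMEM97 alone was called. TMEM97 (ENSG00000109084.13, chr17:28319095-28328685, plus strand), the sigma-2 receptor, binds the lysosomal cholesterol exporter NPC1. TMEM97 was at 86.8, 72.0, 64.6 and 95.3 FPKM with vehicle and at 45.8, 22.7, 42.4, 37.5 and 37.0 FPKM at 200 mg/kg. It stood at 49.2, 50.6, 36.0 and 56.4 FPKM at 100 mg/kg and 60.4, 55.2, 54.6 and 63.1 FPKM at 30 mg/kg, and every treated tumor of the 3 doses lay below every vehicle tumor. TMEM97 had the largest fall of the members after ACAT2, with -1.10 (SE 0.182, adjusted p = 2.58e-05) at 200 mg/kg and -0.72 (adjusted p = 0.0381) at 100 mg/kg. TMEM97 at 100 mg/kg lost its call in 6 of 8 fits that left out a tumor. Untreated tumors had 64.6, 83.1, 49.8, 55.5 and 67.7 FPKM of TMEM97, 0.31 log2 units below vehicle (limma adjusted p = 1), and against untreated tumors the fold change was -0.79 (adjusted p = 0.00147) at 200 mg/kg and -0.41 (adjusted p = 0.255) at 100 mg/kg. The exons of TMEM97 overlap with IFT20 on the opposite strand over 361 bases, and IFT20 gave -0.05 (adjusted p = 0.938) at 200 mg/kg. NPC1 was at 153 to 178 FPKM with vehicle and 139 to 172 FPKM at 200 mg/kg (-0.13, adjusted p = 0.653), and STARD4, a cytosolic sterol carrier, gave -0.17 (adjusted p = 0.607). NPC1L1, the intestinal sterol importer, passed the filter through 4 libraries at 1 or more FPKM, with a median of 0.427 FPKM over the 91 libraries.

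The LXR-induced genes were low in these tumors and none was called. MYLIP, a ubiquitin ligase that removes lipoprotein receptors, was at 2.69, 2.75, 2.23 and 2.57 FPKM with vehicle and 4.56, 3.71, 3.78, 6.07 and 7.41 FPKM at 200 mg/kg. All 5 treated tumors lay above all 4 vehicle tumors, but untreated tumors at 2.08 to 3.91 FPKM overlapped with both, and the log2 fold change of 0.74 (SE 0.270, adjusted p = 0.0755) did not pass. ABCA1, the exporter of cholesterol to apolipoprotein A-I, was at 6.70, 3.75, 5.14 and 10.1 FPKM with vehicle and 5.66, 8.61, 9.18, 11.7 and 13.5 FPKM at 200 mg/kg (0.55, SE 0.346, adjusted p = 0.358). ABCG1 reached 1 FPKM in 2 of 91 libraries, failed the filter of 4 libraries and was not tested.

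In the count of groups that did not overlap at 200 mg/kg, 11 of 29 members had every treated tumor below the lowest vehicle tumor and 2 had every one above the highest, against 3.22% and 4.23% of all genes. At 100 mg/kg 11 members lay below and 1 above, against 2.94% and 4.22% of all genes, and at 30 mg/kg 5 lay below and 2 above, against 2.84% and 3.90%. The 5 members below at 30 mg/kg were CYP51A1, TMEM97, ACAT2, MVD and INSIG1. These counts use the vehicle tumors alone. Of the 11 members below vehicle at 200 mg/kg, FDFT1, LSS and INSIG1 overlapped with untreated tumors, as did the 2 above vehicle. The 5 below vehicle at 30 mg/kg all overlapped with untreated tumors at that dose. By the limma test 4 members were called at 100 mg/kg (ACAT2, FDPS, TMEM97 and MSMO1), all lower, where 1.12% of all genes were called and 0.537% as lower. At 30 mg/kg no member was called, where 0.0384% of all genes were, and 9 of 29 members had an unadjusted p under 0.05 in limma, 7 of them lower, against 10.0% of all genes. The median log2 fold change of the members was -0.10, -0.27 and -0.35 at 30, 100 and 200 mg/kg, and 0.02, 0.03 and 0.04 for all genes.

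The trend over dose at 24 h called 14 of 29 members, 13 falling and TM7SF2 rising, where 5.61% of all genes were called, 3.00% as falling and 2.61% as rising. The steepest falls per 100 mg/kg were those of ACAT2 (-0.64, SE 0.0813, adjusted p = 5.10e-08), TMEM97 (-0.51, SE 0.0827, adjusted p = 2.33e-05) and FDPS (-0.46, SE 0.0762, adjusted p = 3.38e-05). HMGCS1, IDI1 and MVD followed with slopes of -0.41, -0.38 and -0.35, and the SEs of these 3 slopes overlap. HSD17B7 had a slope of -0.33 (SE 0.102, adjusted p = 0.0341) and was the 1 member called by the trend and not at 200 mg/kg. The trend calls of HSD17B7, INSIG1 and MSMO1 were each lost in 7 of 17 fits that left out a tumor, that of LSS in 8 and that of TM7SF2 in 1. HSD17B7, INSIG1 and MSMO1 also lost them where only the groups compared were fitted. The smallest called falls were those of SQLE (-0.20) and LSS (-0.18). TM7SF2 rose by 0.39 (SE 0.0965, adjusted p = 0.00705) log2 units per 100 mg/kg, and MYLIP (0.30, adjusted p = 0.131) and ABCA1 (0.30, adjusted p = 0.283) had positive slopes that did not pass.

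**Figure D3:**
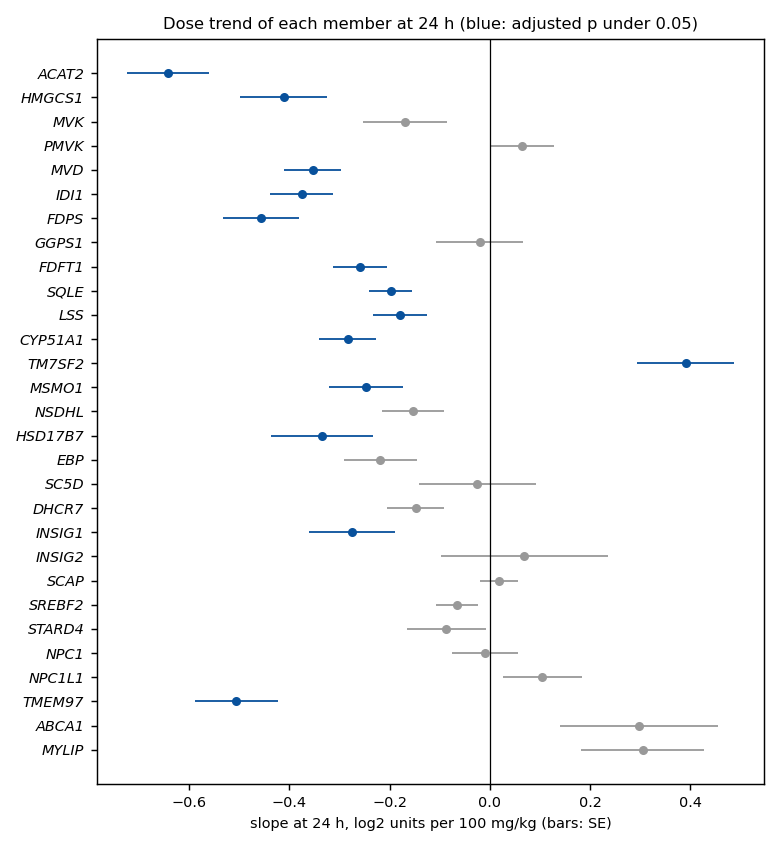
Slope of each of 29 members over doses of 0, 30, 100 and 200 mg/kg at 24 h, in log2 units per 100 mg/kg, with its SE as bars. Blue points passed an adjusted p of 0.05, and they run from -0.64 for ACAT2 to 0.39 for TM7SF2.

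The same members were followed at 1 h and at 3-6 h to see how early they moved. At 1 h no member was called by limma at any dose, and none had an unadjusted p under 0.05, where 0, 0.00767 and 0% of all genes were called at 30, 100 and 200 mg/kg. An unadjusted p under 0.05 was found for 4.38%, 4.97% and 3.34% of all genes at these doses. ACAT2 at 1 h was at 59.3, 67.3, 76.6, 69.0 and 61.6 FPKM with vehicle and 54.2, 85.9, 68.7 and 64.7 FPKM at 200 mg/kg, fully overlapping (log2 fold change 0.02, SE 0.179, adjusted p = 1). FDPS at 1 h was at 95.7, 102, 107, 126 and 112 FPKM with vehicle and 94.8, 101, 123 and 112 FPKM at 200 mg/kg (-0.01, SE 0.167, adjusted p = 1). TMEM97 at 1 h was at 47.3 to 70.5 FPKM with vehicle and 49.3 to 61.9 FPKM at 200 mg/kg (-0.10, SE 0.182, adjusted p = 1). The limma dose trend at 1 h called no member and 0% of all genes, and no member had an unadjusted p under 0.05 in it, against 3.41% of all genes.

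At 3-6 h no member was called either, where 0.0153%, 0.430% and 0.0690% of all genes were called at 30, 100 and 200 mg/kg and 0.215% in the dose trend. By unadjusted p under 0.05 in limma, 6, 3 and 2 of 29 members passed at 30, 100 and 200 mg/kg and 2 in the trend, against 7.03%, 10.3%, 7.23% and 7.83% of all genes. Of all genes, 0.130% were called higher and 0.299% lower at 100 mg/kg, 0.0153% higher and 0.0537% lower at 200 mg/kg, and 0.176% falling and 0.0384% rising in the trend. ACAT2 in the 10 vehicle tumors was at 41.3 at the lowest, 65.5 at the median and 88.2 at the highest FPKM. At 200 mg/kg ACAT2 was at 44.7 at the lowest, 57.3 at the median and 88.7 at the highest FPKM, so that both groups covered nearly the same range (-0.07, SE 0.119, adjusted p = 0.946). FDPS was at 56.4 at the lowest, 115 at the median and 129 at the highest FPKM with vehicle and 75.7 at the lowest, 98.9 at the median and 151 at the highest FPKM at 200 mg/kg (0.06, SE 0.112, adjusted p = 0.957). All 6 members with an unadjusted p under 0.05 at 30 mg/kg were higher than vehicle, with TMEM97 first (0.42, SE 0.121, adjusted p = 0.319). MYLIP was the member with the lowest p at 100 mg/kg (0.49, SE 0.180, adjusted p = 0.258) and at 200 mg/kg (0.42, SE 0.180, adjusted p = 0.570).

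The labels leave unsaid which 3-6 h cage group belongs to 3 h and which to 6 h, so each was set against all 10 vehicle tumors. No member was called in any of the 6, where 0.00767% and 0.276% of all genes were called in cage groups 4 and 5 (200 mg/kg), 0% and 1.33% in 6 and 7 (100 mg/kg) and 0% and 0.0307% in 8 and 9 (30 mg/kg). Cage group 9 had 10 members with an unadjusted p under 0.05 in limma, against 9.26% of all genes. These 10 were higher than vehicle and led by TMEM97 (0.63, SE 0.148, adjusted p = 0.0663). The other 5 cage groups had 0 to 3 such members, against 4.83% to 13.5% of all genes, the 3 members being those of cage group 7 with its 13.5%. Between vehicle and untreated tumors no member passed the limma test at 1 h, 3-6 h or 24 h, where 0% of all genes were called, and 1, 0 and 1 members had an unadjusted p under 0.05 (STARD4 and ACAT2, both higher with vehicle), against 4.73%, 4.83% and 4.20% of all genes.

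The mean log2(FPKM + 1) over the 19 synthesis enzymes gives the level of the route in a tumor. At 24 h it was 5.68 ± 0.193 (SD, n = 5) in untreated tumors and 5.69 ± 0.0615 (SD, n = 4) with vehicle, and 5.56 ± 0.124 (SD, n = 4), 5.34 ± 0.0913 (SD, n = 4) and 5.26 ± 0.0947 (SD, n = 5) at 30, 100 and 200 mg/kg. The tumors at 100 and 200 mg/kg all lay below every vehicle tumor, and 1 untreated tumor at 5.42 lay among those at 100 mg/kg. At 1 h the means were 5.69 with vehicle and 5.66 at 200 mg/kg, and at 3-6 h 5.72 and 5.74. Within the 3-6 h vehicle tumors the level spread from 5.32 to 5.95, and those of 100 mg/kg lay within that range, while the highest tumors at 200 and 30 mg/kg reached 6.02 and 6.19.

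**Figure D4:**
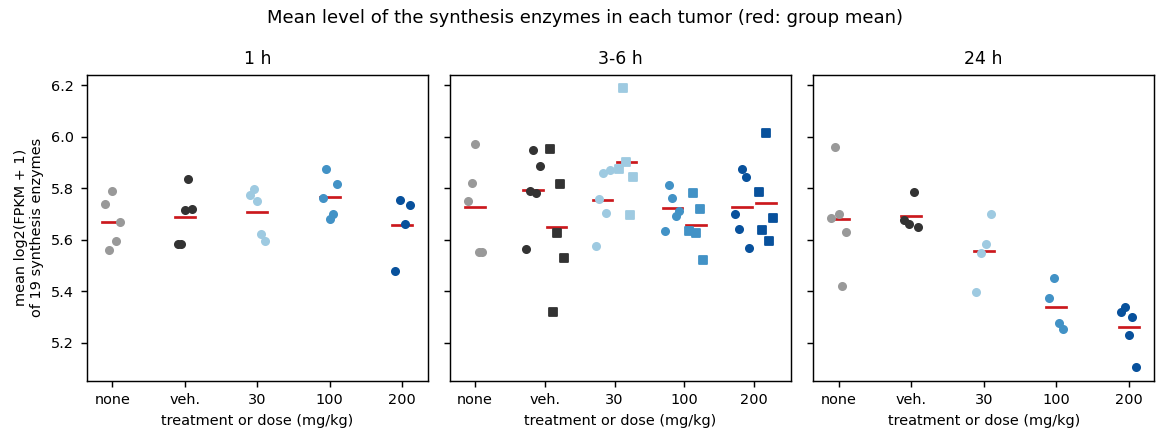
Mean log2(FPKM + 1) of 19 synthesis enzymes in each of 91 tumors, by study and treatment, with the group mean in red. Circles and squares at 3-6 h are the 2 cage groups of a treatment, the lower number as circles. At 24 h the group means run from 5.69 with vehicle to 5.26 at 200 mg/kg.

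The change at 200 mg/kg was also set against that of the earlier studies, with a test of the difference itself. Between 24 h and 1 h it differed for 3 members, where 0.583% of all genes differed and 0.322% in the direction of a lower effect at 24 h. These were ACAT2 (-1.46, SE 0.252, adjusted p = 0.00101), TMEM97 (-1.004, SE 0.257, adjusted p = 0.0382) and FDPS (-0.95, SE 0.237, adjusted p = 0.0336). The calls of TMEM97 and FDPS were each lost in 9 of 18 fits that left out a tumor, where the adjusted p reached 0.108 and 0.0961. Between 24 h and 3-6 h it differed for 8 members, all more negative at 24 h, where 1.72% of all genes differed and 0.990% in that direction. The 8 were ACAT2 (-1.37, adjusted p = 0.000164), TMEM97 (-1.21, adjusted p = 0.000696), FDPS (-1.02, adjusted p = 0.00258), MVD, CYP51A1, IDI1, FDFT1 and SQLE. Leaving out a tumor lost the call of SQLE in 9, of FDFT1 in 5 and of IDI1 in 1 of 29 fits. For the other members called at 24 h a difference between studies was not shown, as for HMGCS1 (-0.77, adjusted p = 0.0562), INSIG1 (-0.68, adjusted p = 0.0983) and TM7SF2 (0.83, adjusted p = 0.0678). The study, the cage and the time cannot be told apart in this comparison.

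The study's lists of TEAD effectors, which it derived from other datasets, hold 6 of the members as positive effectors (ACAT2, MVD, IDI1, FDPS, EBP and DHCR7) and ABCA1 as a negative effector. At 200 mg/kg and 24 h, 4 of the 6 fell, with a median log2 fold change of -0.75. Of the 13 synthesis enzymes in neither list, 6 fell and 1 rose, with a median of -0.38. Of all genes tested, 3.61% were called lower and 3.80% higher in this comparison. The TEAD targets CYR61 and CTGF, read in the same tumors, had log2 fold changes of -1.26 (limma adjusted p = 1.23e-05) and -1.44 (limma adjusted p = 2.11e-06). At 3-6 h, where no member was called, both were already lower at 200 mg/kg. There CYR61 was at -0.72 (limma adjusted p = 0.00223) and CTGF at -0.63 (limma adjusted p = 0.0338). Neither was called at 1 h.

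Other genes of the pathway were read from 4 lists of 53 genes, of which 51 were tested. Of 12 genes of SREBP processing and sensing, none passed in limma at any dose at 24 h, with a median log2 fold change of 0.05 at 200 mg/kg, where 4 of them had an unadjusted p under 0.05, against 21.9% of all genes. Of 14 genes that use isoprenoids, RABGGTB, a subunit of the Rab geranylgeranyl transferase, fell at 200 mg/kg (-0.42, limma adjusted p = 0.00929) and at 100 mg/kg (-0.45, limma adjusted p = 0.0280). RABGGTB was at 51.5 to 60.6 FPKM with vehicle, 51.2 to 63.5 FPKM untreated and 36.9 to 56.4 FPKM at 200 mg/kg, which overlapped with both control groups. Of 7 partners of the ring enzymes, FAXDC2, a fatty acid hydroxylase family member, rose at 200 mg/kg (0.83, limma adjusted p = 0.0211), from 11.3 to 14.8 FPKM with vehicle to 17.9 to 33.8 FPKM. Untreated tumors had 7.49 to 21.9 FPKM of FAXDC2 and overlapped with those at 200 mg/kg. Of 18 tested genes of sterol handling, GRAMD1B, a carrier of sterol from the plasma membrane, rose at 100 mg/kg (1.05, limma adjusted p = 0.0488) and did not pass at 200 mg/kg (0.50, limma adjusted p = 0.284). GRAMD1B was near the floor, at 0 to 1.40 FPKM with vehicle, 0.481 to 2.28 FPKM untreated and 0.753 to 4.16 FPKM at 100 mg/kg, and overlapped with both control groups. At 200 mg/kg 2 of the 51 were thus called, a share of 3.92%, against 13 of the 29 members and 7.41% of all genes.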

How the data were processed

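RNA was measured in 94 tumors of NCI-H226 xenografts. Total RNA went through KAPA RNA HyperPrep and HyperCap target enrichment and paired-end sequencing. The submitters' processing notes name STAR and GRCh38, while the quantification tool, the use of strand and the handling of mouse reads are not given in the sources used here. The authors deposited FPKM, which are model estimates: read counts could not be recovered, so the depth is unknown and the number of genes detected stands in for it. Of 20555 rows, 316 repeats of a gene ID were left out, and 32 blank cells were read as 0. Groups came from the labels, and the times of vehicle and treated tumors from the study code they share with untreated tumors. A tumor below 10000 genes at 1 FPKM was left out (3 of 94).

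The 91 libraries were fitted in limma 3.58.1 (R 4.3.3; trend and robust) on log2(FPKM + 1) with 1 coefficient per group, over 13036 genes at 1 FPKM or more in at least 4 libraries, with Benjamini-Hochberg adjustment over all of them and a threshold of 0.05. A fold change on this scale understates that of low genes. The steps were tested on simulated data. All 30 members are named, and values per tumor at 24 h are given for members called in a dose comparison or a dose trend. The members and the other lists were chosen with earlier results of these data known. Motifs were searched in RefSeq promoters, and exon overlaps come from GENCODE 29. Alternatives were the pseudocount, the filter, the scaling, the samples fitted, the control group and leaving out each tumor.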

Additional observations from a re-analysis of the deposited data

Results flagged for a closer look

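In 5 of 70 combinations of group and member over the 14 members called, the highest or lowest tumor stood apart from the others, where chance gives about 1 in 20. ACAT2 at 30 mg/kg and 24 h was at 42.9 FPKM in replicate 2 and at 51.8 to 52.8 FPKM in the others. CYP51A1 at 100 mg/kg and 24 h was at 62.7 FPKM in replicate 2 and at 51.8 to 52.4 FPKM in the others. HMGCS1 at 200 mg/kg and 24 h was at 26.4 FPKM in replicate 5 and at 38.8 to 43.5 FPKM in the others. HSD17B7 in untreated tumors at 24 h was at 28.3 FPKM in replicate 3 and at 11.7 to 15.5 FPKM in the others. IDI1 at 100 mg/kg and 24 h was at 42.9 FPKM in replicate 1 and at 52.2 to 54.1 FPKM in the others.

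The effect of 200 mg/kg against vehicle differed between the 24 h and 1 h studies, by a limma test of the difference, for ACAT2 (-1.46 log2 units, adjusted p = 0.00101), TMEM97 (-1.004, adjusted p = 0.0382) and FDPS (-0.95, adjusted p = 0.0336). The calls of TMEM97 and FDPS were lost in 9 of 18 fits that left out a tumor. Between the 24 h and 3-6 h studies it differed for ACAT2 (-1.37), TMEM97 (-1.21), FDPS (-1.02), MVD (-0.79, adjusted p = 0.00198), CYP51A1 (-0.73, adjusted p = 0.00338), IDI1 (-0.71, adjusted p = 0.0136), FDFT1 (-0.55, adjusted p = 0.0269) and SQLE (-0.43, adjusted p = 0.0326). Time, study and cage cannot be told apart in these differences.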

How the results depend on the processing

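With all 94 libraries in the fit, the shallow ones included, no member was called at 100 or 200 mg/kg at 24 h, in the dose trend at 24 h, or in the differences between 24 h and 1 h and between 24 h and 3-6 h (0 in each), while 17 members were called lower at 30 mg/kg and 24 h, where the library with 702 genes detected entered and 21.8% of all genes were called lower, with a median log2 fold change of -0.65 over all genes. In that fit the 24 h slopes of MSMO1, FDFT1, SQLE and LSS turned positive (0.0153, 0.0340, 0.0588 and 0.10 per 100 mg/kg). At 100 mg/kg and 24 h, 7 members were called at a filter of 5 FPKM, 7 with median ratio scaling and 2 where only the groups compared were fitted, against 4, and for 24 h minus 3-6 h such a fit called 5 against 8; the cause was not tested. Leaving out a tumor gave 2 to 3 calls at 100 mg/kg and 11 to 14 at 200 mg/kg at 24 h, 10 to 15 in the 24 h trend, 1 to 6 for 24 h minus 1 h, 5 to 10 for 24 h minus 3-6 h, 0 to 1 at 100 mg/kg and 3-6 h and in cage group 7, and 0 to 2 in cage group 9. The other comparisons stayed at 0 in these fits. At 200 mg/kg and 24 h, the calls of ACAT2, TMEM97, MVD, FDPS, IDI1, CYP51A1, FDFT1, HMGCS1, SQLE and TM7SF2 held whichever tumor was left out. With untreated tumors as control, 15 members were called at 200 mg/kg and 5 at 100 mg/kg at 24 h. Apart from the fit of all 94 libraries, the share of all genes called under these settings is not given here. Whether a change in these counts is particular to the members was therefore not tested. No paired analysis was possible because replicate numbers follow accession order and pair no tumors. Groups of 4 to 5 tumors limit what can be seen of small changes.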

Other observations

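The 3 libraries left out for few detected genes entered no comparison. At 24 h, replicate 1 of 30 mg/kg listed all 30 members at 0. Replicate 5 of 100 mg/kg listed 7 members at 0, TMEM97, IDI1 and SC5D among them, while FDPS was at 147 FPKM, ACAT2 at 25.9 FPKM and INSIG2 at 168 FPKM. At 1 h, replicate 1 of 200 mg/kg listed 5 members at 0, with TMEM97 at 204 FPKM and ACAT2 at 90.7 FPKM. SREBF2 was at 49.5 FPKM in the former and 49.6 FPKM in the latter of these partly covered libraries.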
